A study of Homo sapiens with 2 samples.

Results

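Histone genes that follow the symbol pattern H1-number, H2AC, H2BC, H3C or H4C with a number were examined for peaks of RUNX2 and of MTA1. They numbered 73 of the 20037 protein-coding genes of the RefSeq annotation of GRCh38, with 10 genes of the linker histone H1, 17 of H2A, 18 of H2B, 13 of H3 and 15 of H4. Chromatin of MDA-MB-231, an established human line of triple-negative breast cancer, was profiled by CUT&Tag, in which an antibody guides a transposase to the sites that the protein occupies. One antibody targeted RUNX2, a runt-domain transcription factor, and the other MTA1, a subunit of the NuRD deacetylase and remodelling complex. There was 1 library per antibody, from untreated cells of a single line, and no control library was analysed here. The labels and the methods name different antibody suppliers, so which product gave each list is uncertain.

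Each library was available as a list of called peaks, 61700 for RUNX2 and 42683 for MTA1, each peak with a score whose scale was not given. Scores ran from 3 to 108 in the RUNX2 list and from 3.01 to 98.7 in the MTA1 list. Between the lists only the rank of a peak was compared, given as the percentage of peaks of its own list with a lower score. Depth is unknown, so a gene without a peak may still carry signal below the calling threshold. All 95% intervals are exact binomial or, for differences of shares, Newcombe intervals, and they cover counting error over genes or peaks only. Neighbouring histone genes share peaks and are not independent, so the intervals are narrower than the data warrant. CDKN2A and CDKN2B, which this line is known to have lost, had no peak in either list.

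Replication-dependent histone genes supply the H1, H2A, H2B, H3 and H4 proteins that package new DNA during S phase. They are short and mostly intronless, their mRNAs end in a stem-loop instead of a poly(A) tail, and many lie side by side in clusters where an H2A gene and an H2B gene are transcribed apart from a shared promoter. Their transcription depends on the coactivator NPAT, and octamer, CCAAT and TATA elements are known promoter features of the family. The symbol pattern also takes in a few linker histone genes that are not tied to S phase, such as H1-10, and germline genes such as H1-6, H1-7 and H1-8.

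The stretches below lie before or between start sites and carry the contrasts described further on. Each was read from the RefSeq promoter table of GRCh38.p14, 5' to 3' on the strand given, and capitals mark, on either strand, the TATA box (TATAAA), the CCAAT box, the octamer (ATTTGCAT) and the core of the RUNX motif (TGTGGT). The last of these can directly adjoin the octamer, as in H2AC7/H2BC7. The bidirectional promoters of H2AC15/H2BC15 and H2BC11/H2AC11 held peaks of both libraries, whereas those of H2BC8/H2AC8 and H2AC7/H2BC7, of the same architecture, held none. The single promoters of H4C8 and H3C2 also held both, the one with none of these motifs and the other with a RUNX core.
H2AC15/H2BC15 (chr6:27838376-27838568, plus strand): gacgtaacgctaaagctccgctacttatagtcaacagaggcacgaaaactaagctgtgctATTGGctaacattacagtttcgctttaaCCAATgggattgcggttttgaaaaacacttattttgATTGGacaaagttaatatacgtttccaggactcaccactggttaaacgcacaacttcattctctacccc
H2BC11/H2AC11 (chr6:27132796-27133042, plus strand): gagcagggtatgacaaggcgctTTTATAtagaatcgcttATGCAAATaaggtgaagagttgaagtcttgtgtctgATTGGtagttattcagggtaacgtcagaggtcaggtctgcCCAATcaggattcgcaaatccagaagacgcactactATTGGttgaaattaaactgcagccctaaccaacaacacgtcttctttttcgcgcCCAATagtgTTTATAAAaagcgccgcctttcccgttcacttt
H2BC8/H2AC8 (chr6:26216689-26216920, plus strand): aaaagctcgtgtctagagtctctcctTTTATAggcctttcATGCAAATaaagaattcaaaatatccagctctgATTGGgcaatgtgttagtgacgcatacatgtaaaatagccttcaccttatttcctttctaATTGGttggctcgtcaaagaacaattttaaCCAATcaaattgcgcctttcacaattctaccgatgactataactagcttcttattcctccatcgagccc
H2AC7/H2BC7 (chr6:26199294-26199515, plus strand): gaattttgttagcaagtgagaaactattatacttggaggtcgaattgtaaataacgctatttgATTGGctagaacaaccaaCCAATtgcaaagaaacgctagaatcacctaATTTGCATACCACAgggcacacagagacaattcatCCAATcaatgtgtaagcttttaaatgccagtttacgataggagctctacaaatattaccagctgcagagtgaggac
H4C8 (chr6:26285535-26285784, minus strand): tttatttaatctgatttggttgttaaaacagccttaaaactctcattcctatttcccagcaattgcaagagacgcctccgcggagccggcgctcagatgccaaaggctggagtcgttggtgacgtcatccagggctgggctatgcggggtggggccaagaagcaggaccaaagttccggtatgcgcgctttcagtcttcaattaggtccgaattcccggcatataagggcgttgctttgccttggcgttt
H3C2 (chr6:26032100-26032349, minus strand): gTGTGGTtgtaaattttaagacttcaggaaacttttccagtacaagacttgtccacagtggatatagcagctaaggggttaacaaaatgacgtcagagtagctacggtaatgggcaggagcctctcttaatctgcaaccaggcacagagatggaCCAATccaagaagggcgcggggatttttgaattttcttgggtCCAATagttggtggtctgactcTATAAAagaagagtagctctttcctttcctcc

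Fewer histone genes than protein-coding genes in general had a peak within 1 kb. A RUNX2 peak lay there for 30 of 73 (41.1%, interval 29.7 to 53.2), against 69.7% of all protein-coding genes. For MTA1 the count was 29 (39.7%, interval 28.5 to 51.9), against 66.5%. Peaks of both libraries were found at 27 genes (37%, interval 26 to 49.1), against 61.2%. Histone genes minus all genes gave -28.6 percentage points for RUNX2 (interval -39.2 to -17.1) and -26.8 for MTA1 (interval -37.3 to -15.3).

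The direction of this difference depended on the genes it was set against, and the searched window grows with the length of a gene. Of the 1940 protein-coding genes that span up to 3 kb, 27.6% had a RUNX2 peak and 26.2% an MTA1 peak. The histone share was higher than theirs by 13.5 points for RUNX2 (interval 2.71 to 25.1) and by 13.5 for MTA1 (interval 2.91 to 25.2). When only the 1 kb on either side of each gene end was searched, in histone and all genes alike, the differences were -8.77 points for RUNX2 (interval -19.4 to 2.71) and -11.2 for MTA1 (interval -21.7 to 0.273). Cytosolic ribosomal protein genes, another family of short and widely expressed genes, stood far above: 78 of 84 (92.9%) had a RUNX2 peak and 81 (96.4%) an MTA1 peak. Histone minus ribosomal protein genes gave -51.8 points for RUNX2 (interval -63 to -38) and -56.7 for MTA1 (interval -67.4 to -43.6).

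**Figure D1:**
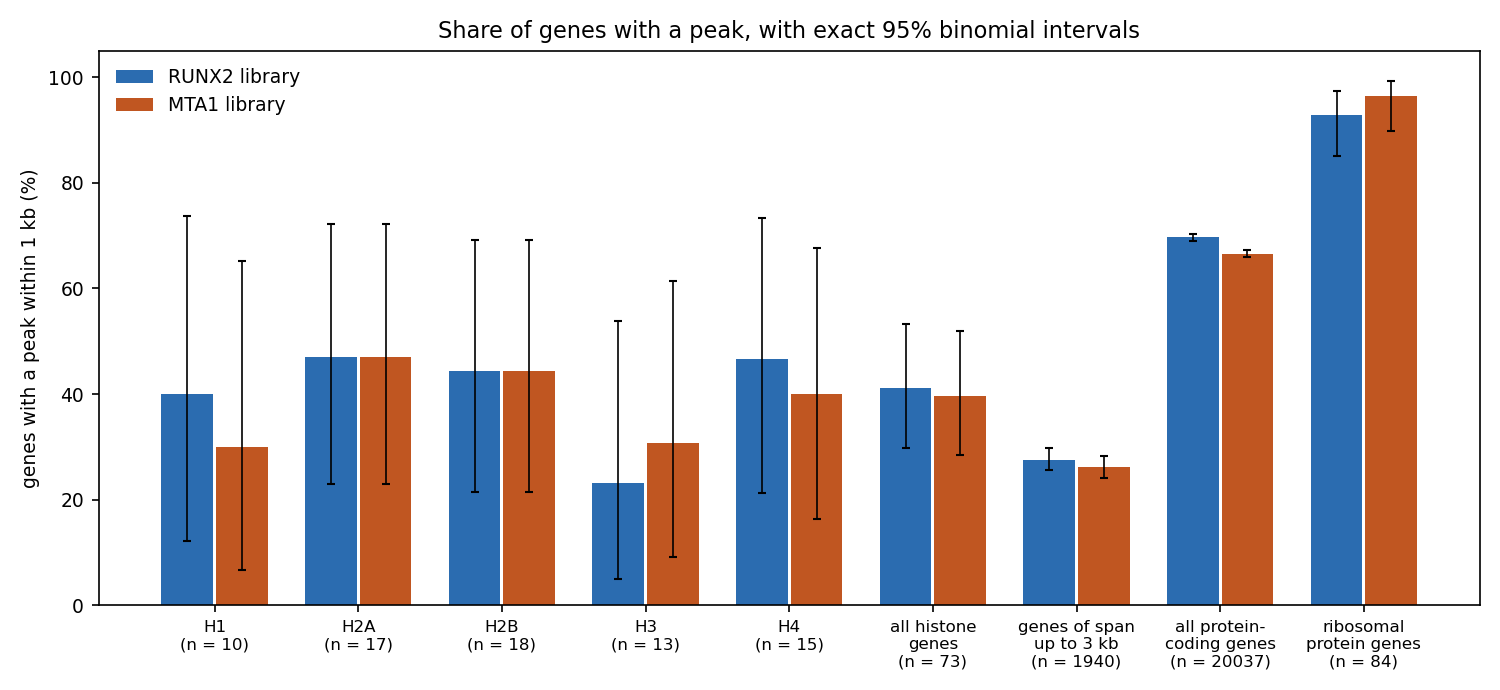
Percentage of genes with a RUNX2 or an MTA1 peak within 1 kb, with exact 95% intervals, for the histone types, all histone genes, short genes, all protein-coding genes and ribosomal protein genes. The histone genes (41.1% and 39.7%) lie between protein-coding genes of up to 3 kb (27.6% and 26.2%) and all protein-coding genes (69.7% and 66.5%).

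Where a histone gene had a peak, it usually had peaks of both libraries, as did genes at large. Of the histone genes with a RUNX2 peak 90% had an MTA1 peak (all protein-coding genes, 87.8%), and of those with an MTA1 peak 93.1% had a RUNX2 peak (all, 91.9%). RUNX2 alone was found at 3 genes. These were H4C15 (score 6.87, rank 51.3%, 16828 bp from its start site), H4C16 (score 7.03, rank 54.5%) and H1-10 (score 29.6, rank 93.7%). MTA1 alone was found at 2, H3C7 (score 5.53, rank 24.4%) and H4C12 (score 3.89, rank 4.94%), both among the weaker peaks of their list. No peak of either library was near the other 41, which were 6 H1, 9 H2A, 10 H2B, 9 H3 and 7 H4 genes.

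The peaks themselves also coincided. Without double counting, 29 RUNX2 and 29 MTA1 peaks lay near histone genes. Of each, 23 overlapped a peak of the other list by at least 1 bp (79.3%, interval 60.3 to 92), against 50% of the RUNX2 and 67.4% of the MTA1 peaks near all protein-coding genes. Among peaks that reached the median score of their list, however, the overlap was 57.9% near histone genes (11 of 19, interval 33.5 to 79.7) and 57.3% near all genes for RUNX2, and 70.6% (12 of 17, interval 44 to 89.7) and 76.5% for MTA1. These intervals still cover the 79.3% of all peaks near histone genes. The peaks near histone genes were also wider, with a median of 221 bp for RUNX2 (all genes, 160 bp) and 270 bp for MTA1 (all genes, 196 bp). Without the peaks of the narrowest width in each list, 78.6% of RUNX2 peaks near histone genes overlapped (all genes, 59.3%) and 85.2% of MTA1 peaks (all genes, 74.4%).

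Whether scores near histone genes were above or below those near other genes depended on what was counted. The strongest RUNX2 peak of each gene had a median rank of 64.7% (lowest 17.1%, highest 97.7%, interval of the median 57.3 to 82.3), against 75.6% over all protein-coding genes with a peak and 69.5% over those of up to 3 kb. For MTA1 the median was 71.7% (lowest 4.94%, highest 88.7%, interval 68.2 to 81.1), against 76.9% and 74.3%. The strongest peak of a gene tends to rank higher where a gene has more peaks. Per peak, the median rank near histone genes was above that near all genes, 57.3% against 51.3% for RUNX2 and 62.5% against 52.8% for MTA1. Counted per gene, the highest scores were near a smaller share of histone genes than of all genes. One of the 10000 highest-scoring RUNX2 peaks was near 5.48% of histone genes (all genes, 25.3%), a difference of -19.8 points (interval -23.2 to -12). For MTA1 the share was 16.4% (all genes, 33.6%), a difference of -17.2 points (interval -24 to -7.01). Genes of up to 3 kb were not examined for these peaks. Counted per peak, 4 of the 29 RUNX2 peaks near histone genes were among the 10000 highest of 61700. For MTA1 it was 8 of 29, among the 10000 highest of 42683, so a scarcity per peak is not shown.

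Linker histone genes stood among the highest RUNX2 scores. H1-2, which encodes a replication-dependent H1 subtype, came first with a peak at chr6:26054976-26055622 of score 43.1 (rank 97.7%), and an MTA1 peak of score 14.9 (rank 79.7%) overlapped it. H1-10, a replication-independent subtype, had a RUNX2 peak at chr3:129314188-129314674 of score 29.6 (rank 93.7%) without an MTA1 peak. These RUNX2 peaks of H1-2 and H1-10 did not lie in a promoter: each lay past the far end of the gene, seen from its start site. H1-10 had another, weaker RUNX2 peak within the gene, of score 5.4 (rank 40.3%). Other high scores were at H2BC5 and at the neighbours H3C1 and H4C1. The RUNX2 peak of H2BC5 at chr6:26171870-26172090 scored 29.2 (rank 93.6%), with an MTA1 peak of score 13.6 (rank 76.4%). This RUNX2 peak also lay past the far end of the gene, 13859 bp from the start site. The RUNX2 peak in the H2BC5 promoter had score 6.36 (rank 47.3%). H3C1 and H4C1 shared a RUNX2 peak at chr6:26021477-26021806 of score 16.4 (rank 82.9%).

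By MTA1 score the order was different, and core histone promoters led. The pair H2AC15/H2BC15 shared the strongest peak, chr6:27838290-27838568, with score 20.8 (rank 88.7%), over a RUNX2 peak of score 16 (rank 82.3%). H4C8 followed with a peak at chr6:26285186-26285884 of score 19 (rank 86.4%), over a RUNX2 peak of score 13 (rank 76.9%). At the pair H2BC11/H2AC11 the MTA1 peak, chr6:27132293-27133121, had score 17 (rank 83.4%) and the RUNX2 peak score 16.1 (rank 82.4%). All of these promoters are among the sequences above. H3C1 and H4C1 shared an MTA1 peak of score 16.8 (rank 83.1%).

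Other core histone genes with peaks of both libraries had middling or low ranks in at least 1 list. H2BC12 and H2AC12 shared a strong MTA1 peak of score 15.6 (rank 81.1%) over a RUNX2 peak of score 7.48 (rank 56.7%). H4C3 likewise had a stronger MTA1 peak, of score 14 (rank 77.4%), than its RUNX2 peak of score 6.56 (rank 49.2%). H2AC21 had an MTA1 peak of score 11.4 (rank 70.1%) over its promoter, where the RUNX2 peak had score 4.26 (rank 13.5%). In these genes MTA1 ranked above RUNX2. H3C2 and H2AC4 shared peaks of score 7.55 for RUNX2 (rank 57.3%) and 11.3 for MTA1 (rank 69.9%), and the peaks lie over the H3C2 promoter printed above. H3C10 had a weak RUNX2 peak of score 4.52 (rank 17.1%) and an MTA1 peak of score 7.46 (rank 48.5%). The order was the opposite at H4C11, H2BC3 and H4C2. H4C11 had a RUNX2 peak of score 12.6 (rank 75.9%) and an MTA1 peak of score 4.84 (rank 14.9%). H2BC3 had a RUNX2 peak of score 7.94 (rank 59.2%) and an MTA1 peak of score 6.12 (rank 37.1%). At H4C2 the RUNX2 peak, of score 9.46 (rank 66.6%), and the MTA1 peak, of score 7.77 (rank 51.9%), did not overlap.

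By histone type the shares overlapped widely. RUNX2 peaks were near 4 of 10 H1 genes, 8 of 17 H2A, 8 of 18 H2B, 3 of 13 H3 and 7 of 15 H4 genes, and MTA1 peaks near 3, 8, 8, 4 and 6. Linker minus core histone genes gave -1.27 points for RUNX2 (interval -27.5 to 29.6) and -11.3 for MTA1 (interval -34.1 to 21.1), intervals too wide to show a difference or a likeness. Among the 10000 highest-scoring RUNX2 peaks the sign turned, with 3 of 10 linker and 1 of 63 core genes near such a peak and a difference of 28.4 points (interval 8 to 58.8). Over all protein-coding genes 25.3% were near such a peak, so the linker share was near the background and the core share below it. Among the H1 genes, H1-4 had weak peaks of both libraries, with RUNX2 score 6.36 (rank 47.3%) and MTA1 score 5.98 (rank 36%), and the same peaks lay in the promoter of H2BC5. H1-1, H1-3, H1-5 and the germline subtypes H1-6, H1-7 and H1-8 had none.

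H2A and H2B genes made up most of the histone genes with a promoter peak. The promoter window ran from 250 bases before to 50 after the start site and was known for 67 of the 73 genes. It held a RUNX2 peak in 20 (29.9%), against 40.9% of 15843 protein-coding promoters, and an MTA1 peak in 19 (28.4%), against 44.5%. Promoters of genes of up to 3 kb held them less often, RUNX2 in 19.3% (interval 17.3 to 21.5) and MTA1 in 20.9% (interval 18.9 to 23.1), so here too the direction depended on the background. Against all promoters, the difference was -11.1 points for RUNX2 (interval -20.7 to 0.741) and -16.2 for MTA1 (interval -25.6 to -4.42). All 19 promoters with an MTA1 peak also held a RUNX2 peak, and the other one with RUNX2 was that of H4C16. Over all protein-coding promoters 5901 held both, out of 7057 with an MTA1 peak and 6486 with a RUNX2 peak. H2A promoters held peaks of either library in 7 of 16 and H2B promoters in 8 of 18, which together was 44.1% for each library, against 15.2% (RUNX2) and 12.1% (MTA1) of the 33 promoters of H1, H3 and H4. At 5 H2A/H2B pairs the same peak was counted for both promoters, which raises the H2A and H2B counts. H3 promoters held them in 3 of 11, those of H3C1, H3C2 and H3C10. Among 13 H4 promoters RUNX2 was found in 2 and MTA1 in 1, and among 9 H1 promoters neither was found, which allows a share of up to 33.6%.

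**Figure D2:**
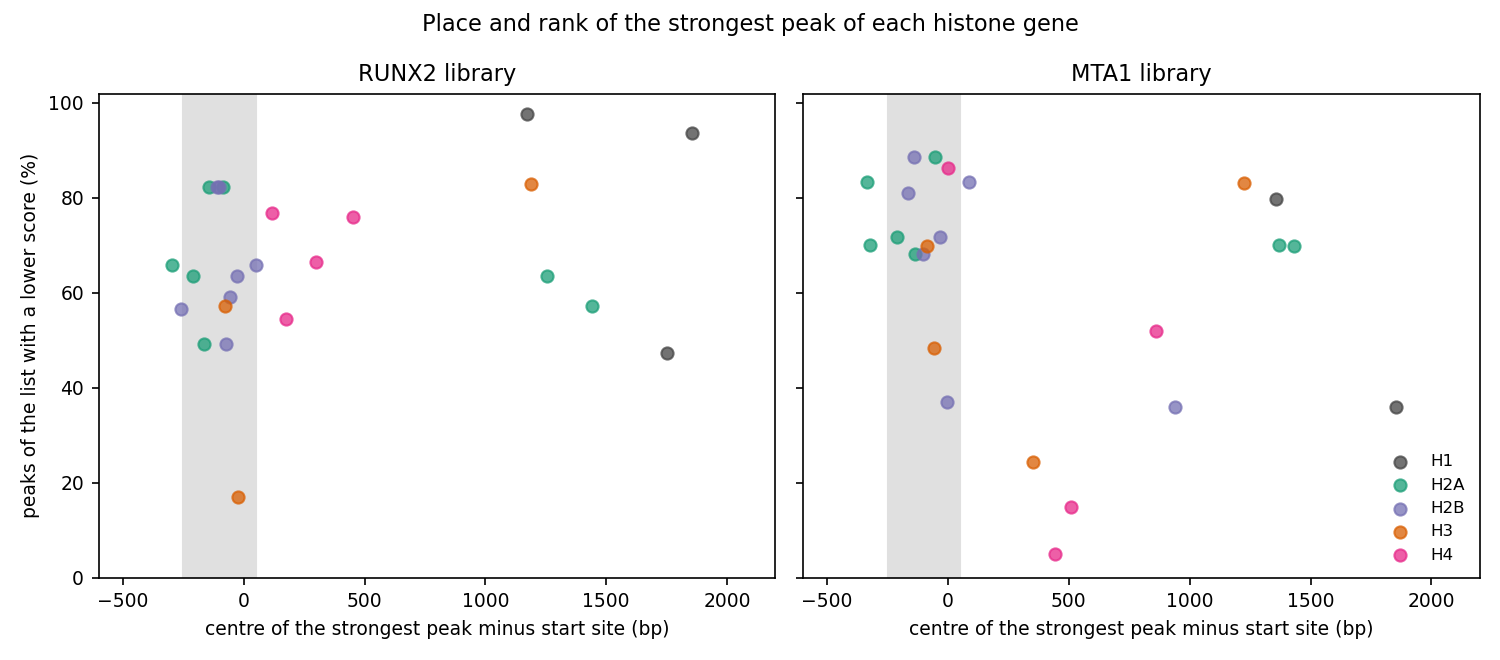
Distance in base pairs from the start site to the centre of the strongest peak of each gene, plotted against the score rank, by library and histone type, with the promoter window shaded. The centre lay in the window for 11 of 26 genes in RUNX2 and 11 of 25 in MTA1, and strongest peaks farther than the axis, at H2BC5 and H4C15, are left out.

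Outside the promoter, the strongest peak was more often past the far end of the gene than upstream of it. Counting a peak as in the promoter when it touched the window by 1 bp, for RUNX2 it was there for 16 of the 26 genes with a known start site and a peak, in the gene body for 2, past the far end for 8 and upstream of the window for 0. For MTA1 the counts were 14, 4, 7 and 0 of 25. These places were not counted for other genes, so the counts do not set histone genes apart from them. By the centre of the peak, 11 RUNX2 peaks lay in the window, 2 upstream (H2AC6 and H2BC12) and 13 downstream, and 11 MTA1 peaks in it, 2 upstream (H2AC11 and H2AC21) and 12 downstream. The far-end RUNX2 peaks had a median rank of 73.2% and the promoter ones of 63.5%. Several of the far-end peaks are also the promoter peak of a neighbour, as at H1-4, since histone genes are packed closely.

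The 11 H2A/H2B pairs with start sites 194 to 248 bp apart were all or none. In 5, both libraries had a peak between the start sites, in 0 only one of them had, and in 6 neither had. Most protein-coding promoters with a peak of 1 library held the other too, as given above. The occupied pairs were H2BC11/H2AC11 and H2AC15/H2BC15, described above, H2BC4/H2AC6 (RUNX2 score 9.27, rank 65.9%; MTA1 score 11.9, rank 71.7%), H2AC17/H2BC17 (6.56, rank 49.2%, and 10.9, rank 68.2%) and H2BC21/H2AC20 (8.62, rank 63.5%, and 5.97, rank 35.9%). The empty pairs were H2AC1/H2BC1, H2AC7/H2BC7, H2BC8/H2AC8, H2BC13/H2AC13, H2AC14/H2BC14 and H2AC25/H2BC26. H2AC1 and H2BC1 encode testis variants of H2A and H2B.

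Motifs known for the histone family were frequent in these promoters, with and without a peak. TATAAA was found in 43 of 67 histone promoters (64.2%; 9.75% of all promoters), CCAAT in 56 (83.6%; 36.4%) and the octamer ATTTGCAT in 26 (38.8%; 1.72%), each searched on both strands. The octamer was in 11 of 16 H2A and 14 of 18 H2B promoters and in 1 H3 promoter. The RUNX core TGTGGT was in 10 (14.9%; 11% of all promoters), namely in 2 of the 20 with a RUNX2 peak and in 8 of the 47 without one. Within the H2A and H2B promoters, the TATA box was in 13 of 15 with a RUNX2 peak and 11 of 19 without, the octamer in 12 of 15 and 13 of 19, and the RUNX core in 1 of 15 and 5 of 19. The table gives H3C4 the same window as H2AC7, so that 1 sequence is counted for both. Paired H2A and H2B genes also share the stretch between their start sites. There 1 match can count for both genes, as the RUNX core of H2AC7/H2BC7 does. H2AC1 and H2BC1, another pair without a peak, both held the core as well. The RUNX core counts without a peak therefore stand for fewer sequences than genes. Such matches describe letters in this window and not sites of binding.

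Along the chromosomes the peaks were unevenly placed. On chromosome 6 the genes formed a large group of 34 (H2AC1 to H4C8), a small one of 5 (H2BC11 to H2AC12) and a further one of 16 (H2BC13 to H2BC17), 11 genes lay on chromosome 1 near H2BC21, and 7 lay elsewhere. RUNX2 peaks were near 13, 4, 6, 4 and 3 genes of these groups in turn, and MTA1 peaks near 14, 4, 7, 3 and 1. In the small group, where only H4C9 was without a peak, there were 13.1 peaks of either library per 100 kb. The large group had 4.47 RUNX2 and 4.29 MTA1 peaks per 100 kb, the further chromosome 6 group 4.63 and 5.79, and the chromosome 1 group 1.9 of each. These densities count peaks between the outer ends of the genes, only 2 of each library in the small group and in the chromosome 1 group. With 1 kb added on either side, the chromosome 1 group had 4 RUNX2 and 3 MTA1 peaks, or 3.73 and 2.8 per 100 kb. No density over the genome was computed, so the densities compare the groups only with each other.

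**Figure D3:**
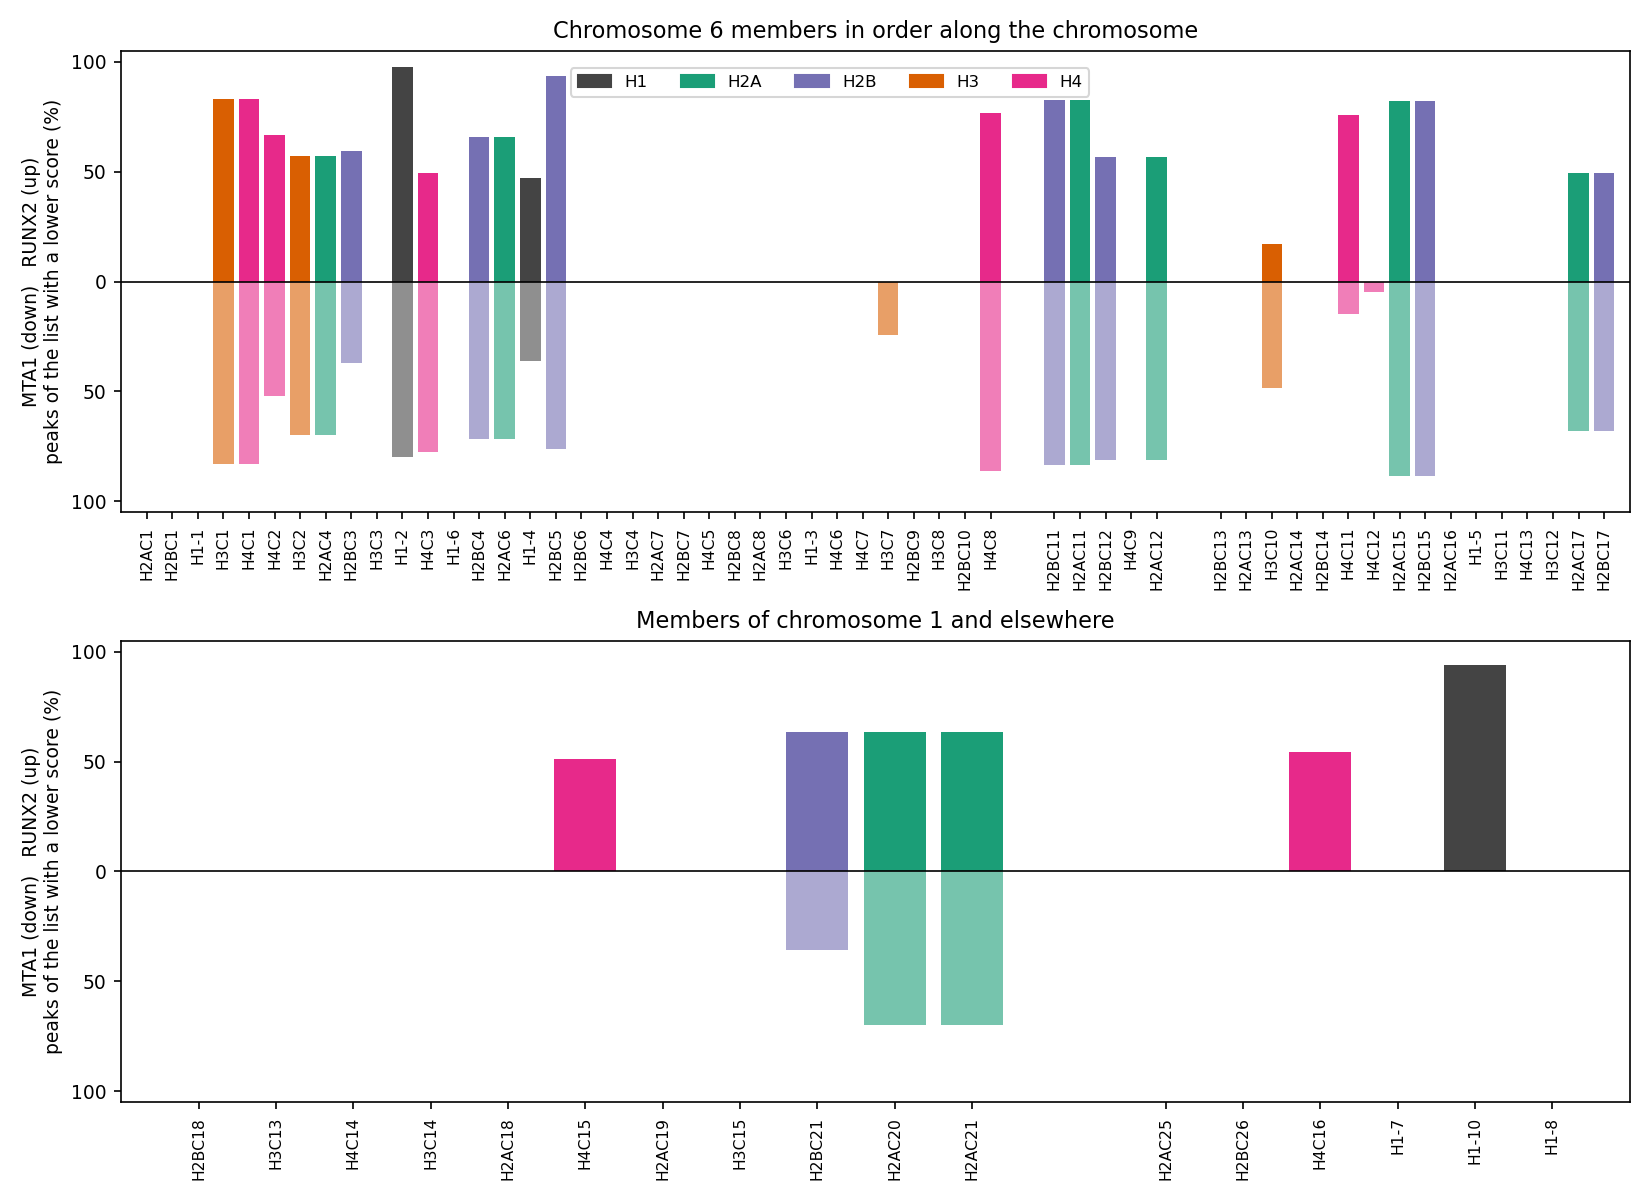
Score rank in percent of the strongest peak within 1 kb of each histone gene, RUNX2 upward and MTA1 downward, in order along chromosome 6 (top) and for chromosome 1 and elsewhere (bottom, 1 gene not shown), coloured by histone type. A place without bars is a gene without a peak: 16 neighbours from H2BC6 to H2BC10 had no RUNX2 peak.

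Within the large group, occupied and empty genes were separated. From H3C1 to H2BC5 most genes had peaks of both libraries, the exceptions being H3C3 and H1-6. The next 16 genes, from H2BC6 to H2BC10, had no RUNX2 peak, and H3C7 was the only one of them with an MTA1 peak, a weak one. The gap between RUNX2 peaks around them measured 108 kb, and H4C8 at its end had strong peaks of both libraries. Such gaps are common on this chromosome, where 380 gaps between RUNX2 peaks were at least as long and covered 55.7% of it. Over all chromosomes they held 16.6% of all protein-coding genes and 24 of the 73 histone genes (32.9%), a description only, as the length was taken from these genes. Further runs of 5 genes each, H2AC16 to H3C12 on chromosome 6 and H2BC18 to H2AC18 on chromosome 1, had no peak of either library.

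Some histone promoters without peaks have near-identical copies. In 8 genes the promoter window was at least 95% identical to that of another member (H2AC18/H2AC19, H3C14/H3C15, H4C14/H4C15 and H4C11/H4C12), and none of the 8 held a promoter peak of either library, against 29.9% (RUNX2) and 28.4% (MTA1) of all histone promoters. Within 1 kb, 2 of the 8 had a RUNX2 peak (H4C11 and H4C15) and 2 an MTA1 peak (H4C11 and H4C12). Reads from such copies may not be placed uniquely, and how they were treated is not given in the sources used here. The part of read placement in these empty promoters was not tested.

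Genes that serve the histone genes had peaks throughout. All 12 genes of histone expression, listed as transcription or mRNA 3' end factors, had peaks of both libraries (interval 73.5 to 100, all protein-coding genes 61.2%). Their median ranks were 82.6% for RUNX2 and 95.2% for MTA1 (all protein-coding genes with a peak, 75.6% and 76.9%). The list was chosen with earlier results of these data known, so its share and ranks are a description only. It was also not matched to the histone genes for gene length, which sets the searched window. NPAT, the coactivator of histone transcription, had a RUNX2 peak of score 37.3 (rank 96.4%) and an MTA1 peak of score 52.1 (rank 99.4%). ERI1, an exonuclease that trims the histone stem-loop, had the highest RUNX2 score of the list, 38.9 (rank 96.8%), and SYMPK, a scaffold of the cleavage complex, the highest MTA1 score, 74.9. CPSF2 and CSTF2, of the cleavage machinery, had weak RUNX2 peaks (scores 3.39 and 3.67).

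Chaperone genes had peaks throughout and replacement variants stood near the background, but the intervals of the lists overlap and no difference between them is shown. The variants can also be made outside S phase. All 10 chaperone genes had peaks of both libraries (interval 69.2 to 100). They were led by CHAF1A, a subunit of the replication-coupled assembly factor CAF-1 (RUNX2 score 45.4, rank 98%, and MTA1 score 61.8, rank 99.8%). DAXX, the H3.3 chaperone, followed (37.4, rank 96.4%, and 54.3, rank 99.6%). Of the 10 variant genes 7 had both (70%, interval 34.8 to 93.3), against 61.2% of all protein-coding genes. H2AX, the variant phosphorylated at DNA breaks, had the highest RUNX2 score among them, 43.1 (rank 97.7%), with MTA1 score 30.7 (rank 95.6%), followed by CENPA of the centromere (30.1, rank 94%, and 27.2, rank 93.9%). H2AJ had MTA1 alone (score 11.6), MACROH2A2 RUNX2 alone (score 4.84), and H3-5 had neither. The background for these counts is again 69.7% of all protein-coding genes with a RUNX2 peak and 66.5% with an MTA1 peak.

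**Figure D4:**
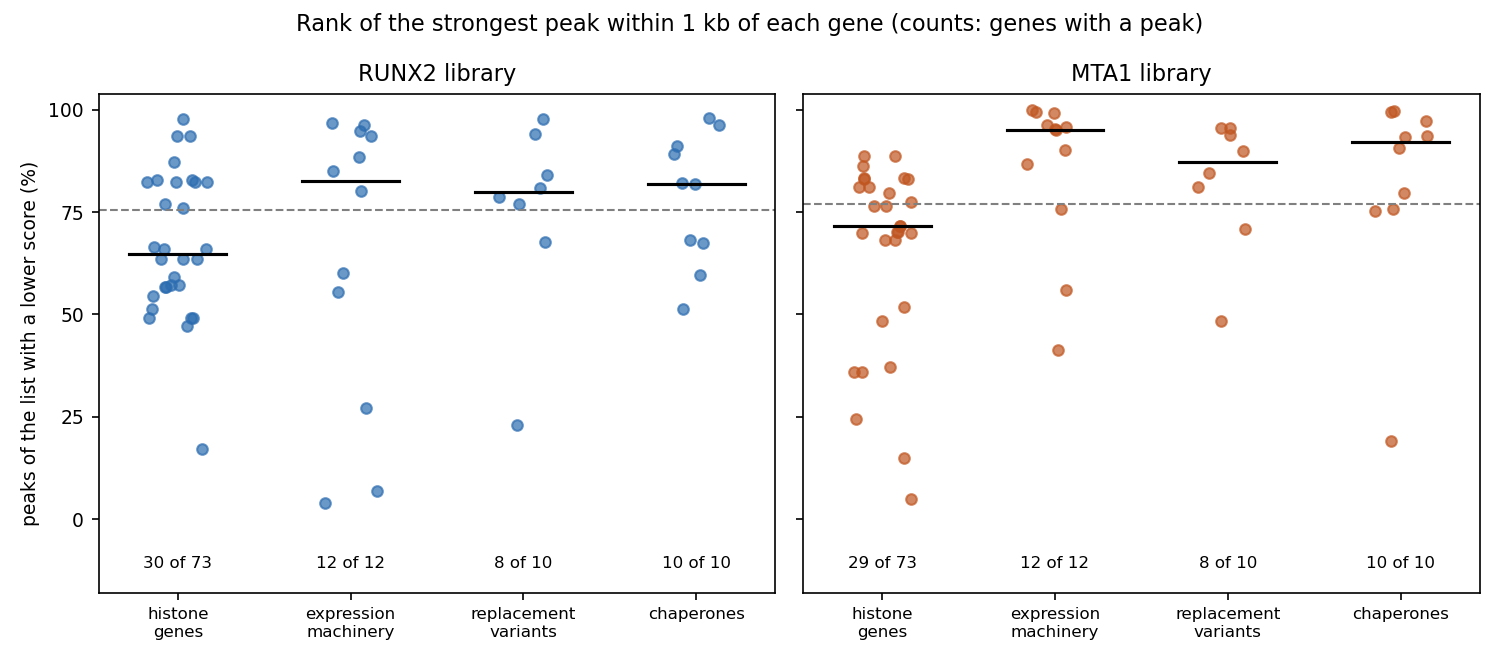
Score rank in percent of the strongest RUNX2 and MTA1 peak of each gene with a peak, for the histone genes and the lists of genes of histone expression, replacement variants and chaperones, with the median of each as a black line and that of all protein-coding genes dashed. The histone genes have medians of 64.7% and 71.7%, the genes of histone expression 82.6% and 95.2%. The groups were not matched for gene length.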

How the data were processed

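CUT&Tag libraries of MDA-MB-231 cells, 1 for RUNX2 and 1 for MTA1, were sequenced by the authors, and peaks were called in each library. The submitters' notes name CASAVA 1.4, Bowtie 0.12.8, MACS and MACS2 with hg19. The labels also describe end repair and adaptor ligation, so the library preparation is uncertain. The deposited lists give a position and a score per peak, and what the score measures is not given in the sources used here. Peaks end as far as 83203435 on chromosome 17 and 64286680 on chromosome 20, past the ends of these chromosomes in hg19, so the lists were read on GRCh38.

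Genes came from the RefSeq table of GRCh38.p14 and promoters from its sequence table. A peak was assigned to every gene it overlapped after widening by 1 kb, and peaks overlapped when they shared 1 bp. Groups on chromosome 6 were split at gaps over 500 kb between members. Values are given for the 5 members with the highest scores per library, members with peaks of 1 library, the H1 genes (1 is counted but not reported by itself), and the strongest 2 and the empty genes of each fixed list. Members and lists were chosen with earlier results of these data known. No p-value was computed, since each antibody has 1 library. Assignment and overlap were tested on simulated data with planted peaks. Computation was in Python 3.11.15 (pandas 2.3.3, numpy 2.4.6, scipy 1.17.1), and figures were drawn with matplotlib 3.10.9. Alternatives were a 3 kb window, gene ends only, the promoter window, the 10000 highest-scoring peaks, peaks at or above the median score, peaks wider than the narrowest width, an overlap of 50% of both peaks, loci in place of genes, the peak centre in the window, and symbols with letters after the number. The promoter window, and the shares without the chromosome 1 genes, were added after seeing the data.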

Additional observations from a re-analysis of the deposited data

How the results depend on the processing

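Of 70 recomputed values 55 changed by less than their interval, 13 moved and 2 reversed. Both reversals of the difference from other genes came from genes of up to 3 kb as the background, where the difference was 13.5 points for RUNX2 and 13.5 for MTA1. Around gene ends alone it was -8.77 (RUNX2) and -11.2 (MTA1), and in the promoter window, chosen after seeing the data, -11.1 (RUNX2). With each list limited to its top 10000 scores, RUNX2 was near 5.48% of histone genes, MTA1 near 16.4% and both near 2.74% (all genes, 25.3%, 33.6% and 19.8%), the overlap was 50% of RUNX2 and 25% of MTA1 peaks, and the median ranks were 93.7% and 83.1%. When an overlap had to cover 50% of each peak, it was met by 55.2% of RUNX2 and 55.2% of MTA1 peaks, and among RUNX2 peaks from the median score up 57.9% overlapped. The linker minus core difference, whose interval over all peaks includes 0, also changed sign, for RUNX2 to 28.4 with the top 10000 and 10.8 with 3 kb, and for MTA1 to 4.13 with the top 10000. The cause of these changes was not tested. Counting loci in place of genes gave 46.5%, 44.2% and 39.5% for RUNX2, MTA1 and both. Leaving out the chromosome 1 group, also chosen after seeing the data, gave 41.9%, 41.9% and 38.7%. No paired analysis was possible because each antibody has 1 library. With no depth, replicate or control library, the lists cannot separate an absent from a weak signal.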

Other observations

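Of 17 pseudogenes named by the same symbols, 3 had a RUNX2 and 2 an MTA1 peak within 1 kb, against 7.25% and 4.84% of all 17051 annotated pseudogenes. The peaks of H2AC5P and H2BC19P also lay near a protein-coding histone gene. H3C9P had a RUNX2 peak of score 10.1 (rank 69%) and an MTA1 peak of score 16.2 (rank 82.2%) that were near none of them. The protein-coding H2BC12L, whose symbol has a letter after the number, had no peak.

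Between the histone genes of the large chromosome 6 group lie 6 other protein-coding genes. TRIM38 had peaks of both libraries and SLC17A1 an MTA1 peak, while SLC17A2, SLC17A3, SLC17A4 and HFE, the gene mutated in hereditary haemochromatosis, had none.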
